A study of Mus musculus with 11 samples.

Results

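The cytosolic ribosomal protein genes were examined in RNA-seq data of primary mouse hippocampal neurons that had received a miR-181a-5p mimic or a negative control. They were taken as every protein-coding gene of the count tables whose symbol is Rpsa, Rplp0, Rplp1 or Rplp2, or starts with Rpl or Rps and a digit, without the Rps6 kinases. The rule found 92 of the 48709 genes in the tables. Of these, 77 are the canonical proteins (43 of the large subunit, 31 of the small subunit and 3 of the stalk), 9 are paralogs or retrogenes with a known partner, 5 are retrocopies annotated as protein-coding, and 1, Rps19bp1, is no ribosomal protein and entered by its name. A gene was tested where 50% or more of the samples had 5 counts or more, which 83 of the 92 met, all 77 canonical genes among them.

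The cells came from hippocampi of E17 embryos of CD1 mice, which were pooled over several embryos before plating, and the study describes the culture as one that holds glia as well as neurons. On day 10 in vitro, lipid nanoparticles with either the mimic (5 samples) or the control oligonucleotide (6 samples) were added together with ApoE4, and RNA was collected on day 12, that is, after 48 hours. Mimic and control cultures shared strain, medium, nanoparticle and ApoE4 and differed, per the labels, in the oligonucleotide alone. Nothing in the labels ties the replicates to separate cultures or litters, so p-values measure the spread between these samples, which may be technical.

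The cytosolic ribosome joins a large subunit, which forms peptide bonds, to a small subunit, which reads the mRNA, and the ribosomal proteins coat and stabilise the ribosomal RNA of both. Their mRNAs are short and begin with a terminal oligopyrimidine (TOP) tract, through which mTORC1 and LARP1 set their translation and stability together. In neurons, ribosomal protein mRNAs are also carried into axons and dendrites, where part of the protein supply of synapses is made. Most of these genes have many processed pseudogenes, copies of the spliced mRNA that were inserted elsewhere in the genome, so short reads from them may match several places.

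The oligonucleotides are shown because they are what the labels say differed between the groups. The seed of the mimic, bases 2 to 8, is in capitals.
miR-181a-5p mimic: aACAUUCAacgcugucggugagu
negative control: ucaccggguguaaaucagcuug

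The first 30 coding bases of 5 genes (GENCODE M21, GRCm38, start codon in capitals) are given with the number of other annotated genes that hold all of them. This number does not measure how much of an mRNA is repeated. All 30 bases of Rps3 and of Rpl8 were found in 0 other annotated genes, while those of Rpl10 were found in 3, those of Rpl29 in 27 and those of Rpl21 in 40, all 40 of them pseudogenes.
Rps3: ATGgcggtgcagatttccaagaagaggaag
Rpl8: ATGggccgtgtgatccgagggcagaggaaa
Rpl10: ATGggccgccgccccgcccggtgttaccgg
Rpl29: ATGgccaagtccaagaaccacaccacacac
Rpl21: ATGacgaacacaaagggaaagaggagaggc

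The 7 letters TGAATGT, which pair with the seed, were looked for on the sense strand of each gene's main mRNA. They occurred in the 3′ UTR of 6 of the 83 tested ribosomal protein genes (7.23%), against 16.9% of the 14345 tested genes with an annotated 3′ UTR. The median 3′ UTR was 87 bases in the ribosomal protein genes and 1015 in the other genes. In coding sequence the letters occurred in 2 of the 83 (2.41%), against 12.7% of all. The 3′ UTR matches were in Rpl5, Rpl21, Rpl22, Rps20, Rps24 and Rpsa, and the coding matches in Rps15a and Rps27a. The matches in Rpsa and Rpl22, which are described further on, and the match near the start of the Rps15a mRNA are given with flanking bases, the 7 letters in capitals.
Rpsa (3′ UTR, chromosome 9): actgctgccccTGAATGTcctggaattca
Rpl22 (3′ UTR, chromosome 4): ttgtatttgaaTGAATGTtgatcactttt
Rps15a (coding, chromosome 7): catggtgcgaaTGAATGTtctggcggatg

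Counts on the ribosomal protein genes made up a small part of each library. All 92 together received between 48914 and 138714 counts per sample, from libraries of 17287168 to 48091231 counts (control replicate 1 was the deepest). This was 0.286% ± 0.00374 of the counts (SD, n = 6) in control and 0.294% ± 0.006 (n = 5) in mimic. The control samples ran from 0.281% over a median of 0.286% to 0.291%, and the mimic samples had 0.285%, 0.298%, 0.301%, 0.294% and 0.293%. Of the 5 mimic samples, 4 lay above every control sample and mimic replicate 1 lay within the control range, so the groups overlapped. These are shares of raw counts, without the TMM scaling that the levels further on have. The TMM factors ran from 0.989 to 1.002 in control and from 0.998 to 1.011 in mimic. Scaling by them would bring the shares of the groups closer together, and scaled shares were not computed. Counting error moved each of these shares by at most 0.00252 percentage points (Wilson interval, 95%). The large subunit genes took 0.132% ± 0.00219 in control and 0.136% ± 0.00295 in mimic, the small subunit genes 0.112% ± 0.00137 and 0.115% ± 0.00265, and the 3 stalk genes 0.0328% ± 0.000473 and 0.0342% ± 0.000861. The difference of 0.00818 percentage points between the group means was not tested, since it sums over genes that were chosen as a list.

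**Figure D1:**
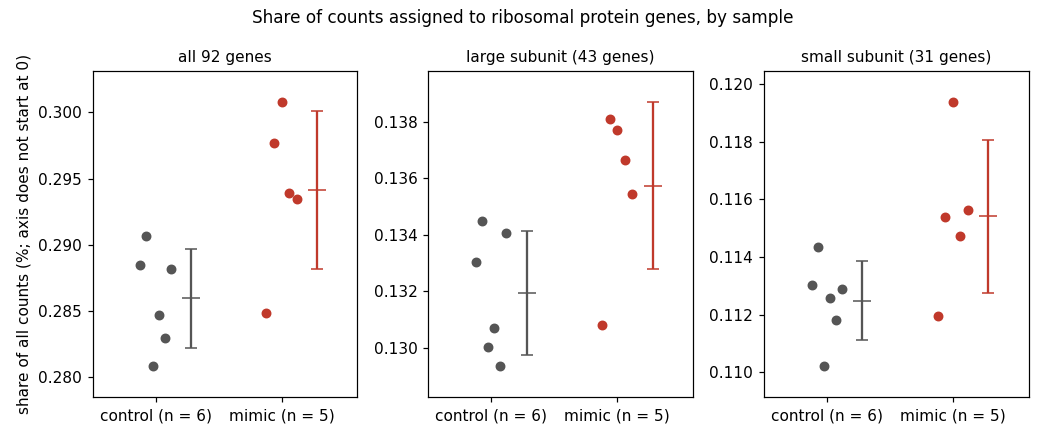
Share of all counts (percent) assigned to the 92 ribosomal protein genes and to the canonical genes of each subunit, 1 point per sample, with the mean and SD of each group at the side (control n = 6, mimic n = 5; the axes do not start at 0). The shares are of raw counts, without TMM scaling. In the left panel 4 of 5 mimic samples lie above every control sample, and mimic replicate 1 lies at 0.285%.

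The counted levels differed widely between the ribosomal protein genes. Levels are given as CPM (counts after scaling every library to the same size by TMM) per kilobase of all annotated exons of the gene, over all 11 samples. Among the 77 canonical genes they had a median of 6.87 and ran from 0.575 for Rpsa to 266.1 for Rplp1, a ratio of 462.5. The highest levels belonged to Rplp1, which forms the lateral stalk that recruits elongation factors, and then to Rpl4 with 180.5, Rps15 with 142.3, Rpl8 with 140.9 and Rplp0, the base of the stalk, with 95.1. The lowest belonged to Rpsa, which is also known as the laminin receptor precursor, then to Rpl23a with 0.66 and Rpl29 with 0.688, followed by Rps13 with 0.935 and Rpl26 with 0.939. Rps15 and Rpl8, Rps13 and Rpl26, and the 3 lowest genes differed from each other by less than the spread between samples. The order of the 77 levels was nearly the same in each sample, as the lowest rank correlation over 55 pairs of samples was 0.993. The 5 genes with the most counts held 37% of all counts on the 92 genes.

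The low levels went along with repeated sequence. The share of 50-base windows of the main mRNA that occur in no other annotated gene, 50 bases being the read length, had a median of 45.5% in the canonical genes and of 100% in the 14473 other tested genes with an mRNA. It was 1.35% in Rps27, the lowest, and 97% in Rps3, which lies at the entry of the mRNA channel, and it was under 50% in 45 of the 77 canonical genes but in 3.37% of the other genes. The 45 genes under 50% had a median level of 2.49 CPM per kilobase, and the 32 genes above it had 15.5. The Spearman correlation between this share and the level was 0.561 over the 77 genes, which share libraries and exon annotation. Exceptions lay on both sides: Rplp1, the highest, had 40% of its windows to itself, while Rpsa with 56%, Rps29 with 64.2% and Rpl34 with 62.1% had levels of 0.575, 1.77 and 1.41. The share of unique windows covers the main mRNA alone, while counts are per gene and levels per kilobase of all annotated exons. Rps27 had 4 unique windows in its main mRNA and 888 over all its annotated transcripts. Rpl9 had 46 and 2832, while in Rplp1 both were 180. Which part of a gene its counts came from was not tested. How reads with several matches were counted is not given in the sources used here. The part that repeated sequence played in these levels was not tested, and a low level here cannot be read as a scarce mRNA.

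**Figure D2:**
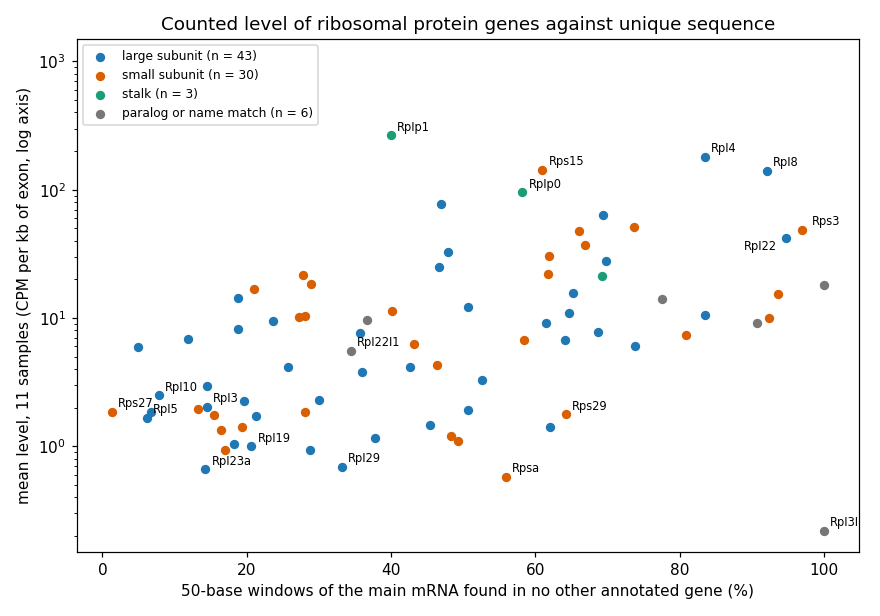
Mean level over 11 samples (CPM per kilobase of exon, log axis) against the percent of 50-base windows of the main mRNA that are found in no other annotated gene, 1 point per gene shown, coloured by subunit. Rps27 (1.35%) and Rpl10 (7.87%) lie low, at 1.85 and 2.49, while Rps3 (97%) and Rpl8 (92.1%) lie high. Rpl35, with 4.91% of its windows to itself, lies at 5.93. The levels are per kilobase of all annotated exons, and the windows are of the main mRNA alone.

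Annotated pseudogenes with a ribosomal protein symbol received few of the counts. The tables held 276 of them, 82 of which had 0 counts in every sample, and 19 passed the filter. Together they took 0.00784% ± 0.000236 of the counts in control and 0.00794% ± 0.000196 in mimic. None of the 19 was called by edgeR, DESeq2 or limma (2 by edgeR at an unadjusted p under 0.05), and their median log2 fold change was -0.02. Pseudogenes under other names, such as Gm15500 for Rpl5, are not among the 276. Their counts were not summed, so the share on all pseudogenes of these genes is not given.

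The comparison of mimic with control asked which mRNAs differed 48 hours after the microRNA was added. No ribosomal protein gene passed the threshold in either direction. Of the 83 tested, 0 were called lower and 0 higher by edgeR at an adjusted p under 0.05, where 1.77% of all 17365 tested genes were called lower and 1.08% higher. DESeq2 and limma also called 0 of the 83. At an unadjusted p under 0.05 there were 4 of 83 (4.82%) by edgeR, 4 by DESeq2 and 4 by limma, against 15.7% of all genes by edgeR. The lists and the genes were chosen with earlier results in view, and these shares are given as a description.

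The log2 fold changes, mimic over control, were small on both sides of 0. Their median was 0.01 (0.00659 before rounding), with quartiles of -0.05 and 0.04, and 48 of the 83 were above 0. The median over all tested genes was -0.000149, and over the 1055 tested genes with less than 1000 bases of exon, a length closer to that of these mRNAs, it was 0.02. By subunit the medians were 0.00367 for the large subunit (22 of 43 above 0), 0.00704 for the small subunit (19 of 31 above 0) and 0.04 for the stalk (3 of 3 above 0). In bulk RNA a change in the share of a cell type and a change of RNA per cell cannot be told apart.

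Missing the threshold does not show that a gene stayed level, so the intervals matter here. For 60 of the 83 genes the 95% interval of the fold change lay within 1.2-fold in either direction, and for 32 within 1.1-fold. The other 23 genes could have differed by more than 1.2-fold. The precision followed the counts: the 48 genes at 10 CPM or more had a median SE of 0.04 (log2) and the 35 genes under 10 CPM had 0.1. The log2 fold changes of the 48 ran from -0.2 to 0.07 and those of the 35 from -0.28 to 0.27. The coefficient of variation over the control samples had a median of 4.29% in the former and 10.9% in the latter.

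**Figure D3:**
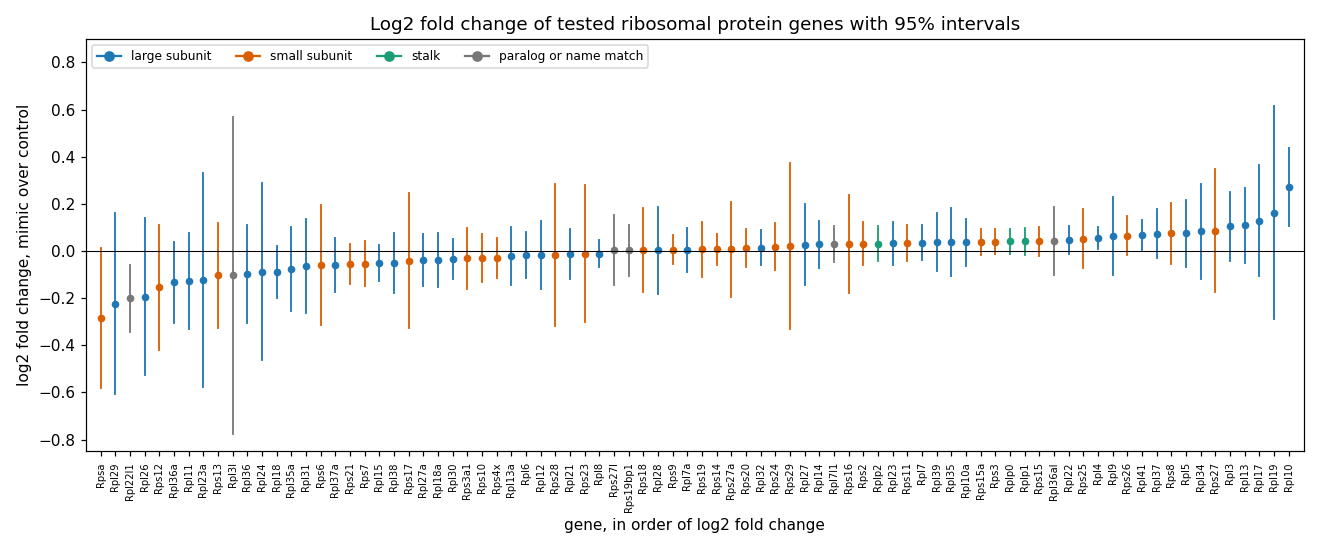
Log2 fold change (mimic over control) of the tested genes, 1 left out, in ascending order, with 95% intervals from the edgeR fit, coloured by subunit. The intervals of Rpl10, Rpl4 and Rpl41 lie above 0 and that of Rpl22l1 lies below 0, all before adjustment for the number of genes tested.

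Rpl10 had the largest positive difference and was the only one of the 83 genes whose groups did not overlap (1.2%), where 2.89% of all tested genes had groups that did not overlap. It encodes a large subunit protein that is placed late in assembly, close to the catalytic centre. The gene lies on chromosome X from 74270812 to 74273135 (GRCm38). The control samples ran from 4 CPM over a median of 4.71 to 5.13, and the mimic samples had 5.53, 5.35, 5.79, 5.82 and 5.83. All 5 mimic samples were above every control sample. The means were 4.65 ± 0.443 CPM in control and 5.66 ± 0.212 in mimic, and the difference did not pass the test. The log2 fold change was 0.27 with an SE of 0.08, an interval of 0.11 to 0.44, and an edgeR adjusted p of 0.0642. Without control replicate 2 the adjusted p was 0.0499, and over all alternatives it ran from 0.0499 to 0.165. Only 7.87% of the windows of its main mRNA (59 of 750) occur in no other gene. Over all annotated transcripts of Rpl10 there were 1545 such windows, and which part of the gene its counts came from was not tested. Its retrocopies include Rpl10-ps3, which had between 0 and 4 counts per sample, so the value of Rpl10 is uncertain. Rpl10l, its retrogene known from testis, had 0 counts in every sample, which allows up to 0.0624 CPM in the deepest and 0.174 CPM in the shallowest.

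Rpl22 and its paralog Rpl22l1, which can take the same place in the large subunit, had log2 fold changes of opposite sign. Rpl22l1 (chromosome 3, 28805436 to 28807424) ran from 10 over 11.8 to 12.7 CPM in control and had 9.12, 10.7, 11.8, 9.6 and 9.81 in mimic. Of the mimic samples 3 were below every control sample and 2 were within the control range. The log2 fold change was -0.2 with an SE of 0.07, an unadjusted p of 0.00713 by edgeR and an adjusted p of 0.122.

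Rpl22 (chromosome 4, 152325742 to 152334071), which carries 1 of the seed matches shown above, ran from 118 over 122 to 124 CPM in control and had 118, 130, 128, 121 and 130 in mimic. The mimic samples spread wider than the control samples, and 3 lay above all of them. Its log2 fold change was 0.05 with an interval of -0.01 to 0.1 (edgeR, adjusted p 0.505). Per kilobase of exon, Rpl22l1 stood at 0.14 ± 0.0113 of the level of Rpl22 in control and at 0.119 ± 0.00981 in mimic, and the ranges of 0.122 to 0.151 and 0.11 to 0.135 overlapped. Rpl22l1 had 34.4% of its windows to itself and Rpl22 94.8%.

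Of the other tested paralogs, none differed past the threshold and neither did any of their partners. Rpl36al, a close copy of Rpl36a on another chromosome, was counted at 3.08 ± 0.35 times the level of Rpl36a per kilobase in control and 3.54 ± 0.677 times in mimic. Rps27l, a paralog that p53 is known to induce, was counted at 7.92 ± 0.936 times Rps27 in control and 7.48 ± 1.01 times in mimic. In the main mRNAs, however, 1.35% of the Rps27 windows are its own against 77.6% of those of Rps27l. Rpl7l1 stood at 0.367 ± 0.0182 of Rpl7 in control and 0.365 ± 0.0144 in mimic. Rpl3l, known from heart and skeletal muscle, had between 2 and 16 counts per sample, and its interval of -0.78 to 0.57 spans large changes both ways. The log2 fold changes were 0.04 for Rpl36al and -0.13 for Rpl36a, 0.00310 for Rps27l and 0.09 for Rps27, 0.03 for Rpl7l1 and 0.04 for Rpl7, and -0.1 for Rpl3l and 0.1 for Rpl3, with edgeR adjusted p between 0.491 and 0.994.

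Besides Rpl10l, 8 genes did not reach the filter. Rpl39l, a paralog of Rpl39 known from testis, had at most 1 count in any sample, Rps27rt at most 3 and Rpl9-ps6 at most 4. Among the remaining retrocopies, Rpl9-ps1 and Rpl36a-ps1 had at most 1 count, Rpl10-ps3 at most 4, and Rpl36-ps4 and Rps12-ps3 had 0 counts in every sample. Rps19bp1, a binding partner of Rps19, stood at 19.6 ± 1.58 CPM in control and 19.7 ± 0.947 in mimic.

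**Figure D4:**
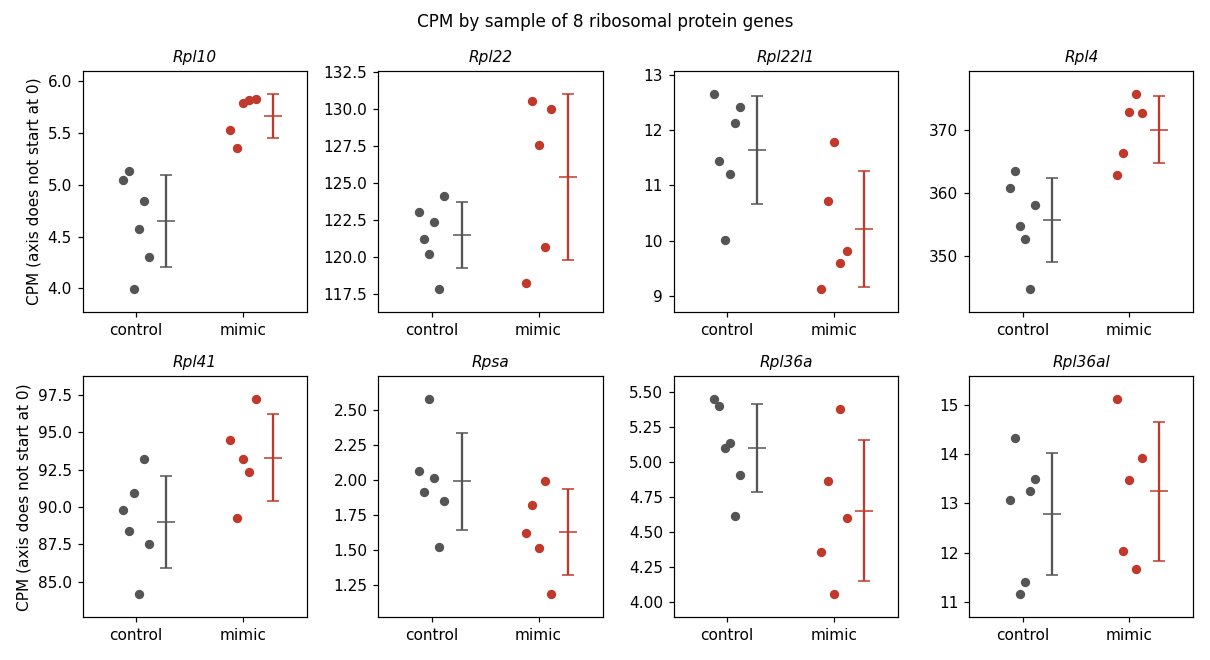
CPM by sample of 8 genes, with the mean and SD of each group at the side (control n = 6, mimic n = 5; the axes do not start at 0). The points of Rpl10 do not overlap between groups (control up to 5.13 CPM, mimic from 5.35 CPM), and those of the other 7 genes do.

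The other extremes belonged to genes with few counts. Rpsa (chromosome 9, 120127689 to 120132369) had the largest negative difference. It ran from 1.52 over 1.96 to 2.57 CPM in control and had 1.62, 1.82, 1.51, 1.99 and 1.18 in mimic. The groups overlapped, with 2 mimic samples below all controls, and the log2 fold change of -0.28 had an interval of -0.58 to 0.01 (edgeR, adjusted p 0.35).

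Rpl29, Rpl26 and Rps12 came next on the negative side (besides Rpl22l1), with log2 fold changes of -0.22, -0.19 and -0.15. Rpl19, Rpl17, Rpl13 and Rpl3 came next to Rpl10 on the positive side, with 0.16, 0.13, 0.11 and 0.1. All 7 had overlapping groups, intervals that included 0 and a mean level of 0.775 to 6.44 CPM, and their edgeR adjusted p lay between 0.54 and 0.812. Rpl3 is a large subunit protein that reaches towards the catalytic centre. Several of these values depended on 1 sample. The log2 fold change of Rpl19 was -0.01 without mimic replicate 3, 0.05 without control replicate 2 and 0.33 without control replicate 1. That of Rpl26 was -0.38 without mimic replicate 2, past the value of Rpsa, and -0.13 without control replicate 1 or mimic replicate 1. That of Rps12 was -0.24 without control replicate 1 and -0.09 without mimic replicate 3, that of Rpl13 was 0.07 without mimic replicate 3, and that of Rpsa was -0.19 without mimic replicate 5.

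Genes with many counts gave narrow intervals. Rpl4 (chromosome 9, 64173375 to 64178666), which lines the exit tunnel of the nascent chain, ran from 345 over 356 to 364 CPM in control and had 363, 366, 373, 376 and 373 in mimic, with 4 of 5 mimic samples above every control sample. Its log2 fold change was 0.06 with an interval of 0.01 to 0.1, an unadjusted p of 0.0201 by edgeR and an adjusted p of 0.206. Rpl41, whose coding sequence of 75 bases is the shortest among the canonical genes, ran from 84.2 over 89.1 to 93.2 CPM in control and had 94.5, 89.2, 93.2, 92.3 and 97.2 in mimic. Its log2 fold change was 0.07, with an interval of 0.01 to 0.13 and an adjusted p of 0.26.

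The remaining genes with high levels did not differ beyond their spread. The log2 fold changes were 0.04 for Rplp1 (interval -0.01 to 0.1), 0.04 for Rplp0 (-0.01 to 0.09), 0.04 for Rps15 (-0.02 to 0.1) and -0.01 for Rpl8 (-0.07 to 0.05), all with edgeR adjusted p of 0.508 or more. Rpl8 had 181 and 181 CPM in mimic replicates 1 and 5 and 197, 197 and 198 in the others, while its controls lay between 189 and 197. At the lower end, Rpl23a with 0.571 ± 0.121 CPM in control and 0.543 ± 0.0683 in mimic had an interval of -0.58 to 0.33, and Rps13 with 2.6 ± 0.193 and 2.41 ± 0.224 had one of -0.32 to 0.12. The 8 genes with a seed match ran from -0.28 (Rpsa) to 0.08 (Rpl5) and none was called.

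Fau and Rack1 encode ribosomal components that the symbol rule leaves out. Fau is made as a fusion with a ubiquitin-like protein, and Rack1 is a scaffold on the small subunit. Their log2 fold changes were -0.06 (interval -0.22 to 0.1) and 0.01 (-0.04 to 0.06), and edgeR, DESeq2 and limma called 0 of them (0 at an unadjusted p under 0.05 by edgeR).

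The genes that build and feed the ribosome were read in the same fit, as counts and medians. Of 77 mitochondrial ribosomal protein genes tested, 0 were called lower and 0 higher by edgeR (1 at an unadjusted p under 0.05), with a median log2 fold change of 0.01. The same holds for 76 ribosome biogenesis and assembly factors (6 at an unadjusted p under 0.05, median 0.00364), 15 genes of RNA polymerase I transcription (1, median -0.01), 38 translation initiation factors (1, median 0.00525), 14 elongation and release factors (3, median -0.02), 10 other TOP mRNAs (2, median -0.02) and 15 snoRNA host genes (3, median 0.03). In these lists limma also called 0 and DESeq2 called 1, the initiation factor Eif1b. Among 26 regulators around mTORC1, LARP1 and the 4E-BPs, 2 were called lower and 0 higher, with a median of -0.01 (6 at an unadjusted p under 0.05; DESeq2 called 3 and limma 2). Among the genes called lower was Ddit4, an inhibitor of mTORC1, which fell from 95.5 ± 3.47 to 87.1 ± 2.7 CPM (log2 fold change -0.13, edgeR adjusted p 0.0157), with groups that did not overlap.

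**Figure D5:**
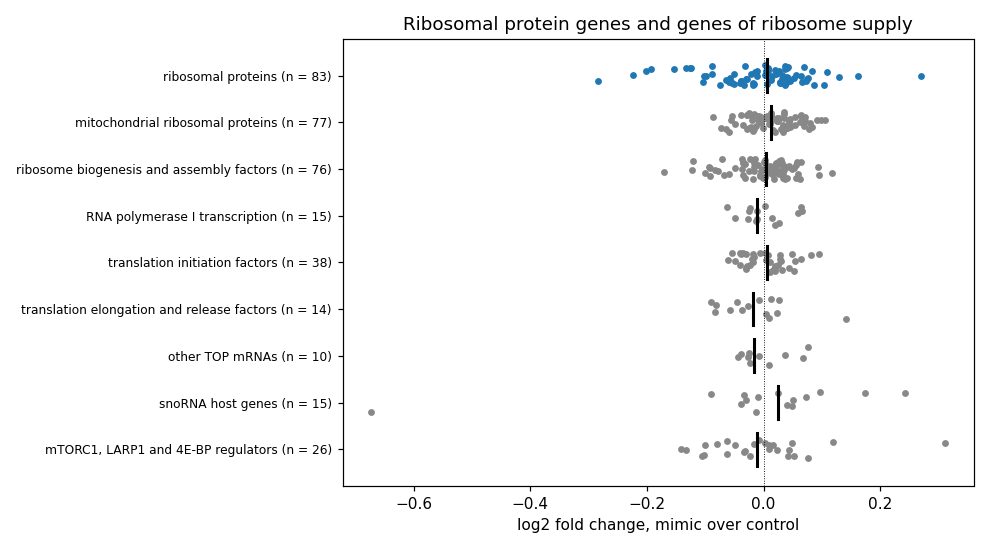
Log2 fold change (mimic over control) of the tested genes in 9 lists, 1 point per gene, with the median of each list as a black bar. The medians lie between -0.02 and 0.03, and the point at -0.67 is Snhg3, which had 0.286 CPM in control and an edgeR adjusted p of 0.476.

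Markers of the cell types in the culture were read as well. The 7 neuron markers summed to 6140 to 6341 CPM in control and 5947 to 6097 in mimic, and these sums did not overlap. Among them 1 was called lower (Slc17a7) and 0 higher by edgeR. Of the 7, 4 had an unadjusted p under 0.05, 1 was above 0, the median log2 fold change was -0.05, and DESeq2 and limma each called 1. The 5 astrocyte markers (2092 to 2321 against 1984 to 2182), the 5 microglia markers (10.9 to 11.8 against 11.4 to 12.1) and the 6 oligodendrocyte lineage markers (309 to 373 against 283 to 324) had 0 called by edgeR, with 2, 1 and 2 at an unadjusted p under 0.05. Of these limma called 0 and DESeq2 called 1, Olig1 of the oligodendrocyte lineage. The 7 vascular and fibroblast markers summed to 135 to 200 CPM in control and 210 to 290 in mimic, and these sums did not overlap. Of the 6 that were tested, 5 were above 0 and 5 had an unadjusted p under 0.05, with a median log2 fold change of 0.5. By edgeR 1 was called lower (Rgs5) and 1 higher (Cdh5), while DESeq2 called 4 and limma 2. The 6 cycling cell markers summed to 64.8 to 71.4 CPM in control and 76.8 to 84.2 in mimic, again without overlap. All 6 were above 0 with an unadjusted p under 0.05 and a median of 0.28, and 2 (Top2a and Cdk1) were called higher by edgeR, as many as by DESeq2 and by limma. The part of these shifts in the values of the ribosomal protein genes was not tested.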

How the data were processed

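Poly(A) RNA was sequenced as 50-base single-end reads. The authors mapped the reads to mm10 with STAR 2.5.2b and counted them with featureCounts (Subread 1.5.1). They deposited raw counts per gene and a table of normalized signal (counts divided by 1 size factor per sample, 16921 genes). Which annotation release was used, and how strand and reads with several matches were handled, is not given in the sources used here, so overlapping and repeated genes are uncertain. Of 48709 rows, 48349 matched GENCODE M21, which gave symbols, exon lengths and main mRNAs.

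The 17365 genes with 5 counts or more in 50% or more of the samples entered edgeR 4.0.16 under R 4.3.3 (quasi-likelihood test; TMM scaling, robust, two-sided, group alone, Benjamini-Hochberg adjustment over all tested genes, threshold 0.05). Filter and threshold follow the study, which used DESeq2. DESeq2 1.42.0 and limma 3.58.1 on log2(signal + 1) were alternatives, beside other scaling, filters, left-out samples, thinning and a replicate block. The fit was tested on simulated data. No replicates agreed within sampling noise (smallest chi-square per degree of freedom 1.23). A count of 0 allows 3 counts. Intervals and floors cover counting error alone where they rest on 1 sample.

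The genes and lists were chosen with earlier results of these data known. Genes were named by rule: called genes, the 5 lowest and 5 highest fold changes, the 5 highest and 5 lowest levels among canonical genes, paralogs with their tested partners, and ribosomal components outside the symbol rule (Fau and Rack1). Rpl4 was named by its level. Other genes (Rpl41, Rps29, Rpl34, Rpl5, Rpl21, Rps3, Ddit4, Eif1b, Olig1 and Snhg3 among them) were chosen after their values were seen. A few genes are not reported here by name.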

Additional observations from a re-analysis of the deposited data

Results flagged for a closer look

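In 62 sets of values (control or mimic samples of the named genes, the totals and the shares) 4 single samples stood apart from the rest of their group, and chance gives about 1 in 20. They were control replicate 5 in Rpl17 (1.81 CPM, the other controls 2.15 to 2.28), mimic replicate 3 in Rpl19 (1.73 CPM, the other mimic samples 0.912 to 1.09), mimic replicate 2 in Rpl26 (1.78 CPM, the others 1.01 to 1.24) and control replicate 3 in Rps27 (2.39 CPM, the others 1.69 to 1.85). All 4 genes were counted at low levels.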

How the results depend on the processing

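The counts of ribosomal protein genes called lower and higher were 0 and 0 under all 22 alternatives but 1: without control replicate 2, 1 gene, Rpl10, was called higher, and over the fits that leave out a sample the count called higher ran from 0 to 1. The median log2 fold change ran from 0.000571 to 0.0209 when a sample was left out, was 0.00241 without the count filter and 0.0168 with upper-quartile scaling, and moved by less than 1 SD between samples (0.0182) under every alternative. Of 615 values of the 28 named genes under alternatives, 592 kept direction and side of the threshold, 22 changed sign with an adjusted p of 0.788 or more, 18 of them when a sample was left out, and 1 (Rpl10) became a call. The other 4 sign changes were Rps19bp1 (-0.0017 without the count filter, -0.0243 with the replicate block, -0.0231 with numbers 1 to 5 alone) and Rps27l (-0.00189 without the filter). When a sample was left out, the ranges that crossed 0 were -0.00968 to 0.333 for Rpl19 (below 0 without mimic replicate 3), -0.00686 to 0.0905 for Rpl36al, -0.272 to 0.065 for Rpl3l, -0.0226 to 0.0115 for Rpl8, -0.0231 to 0.0316 for Rps19bp1, -0.0528 to 0.0526 for Rps27l and -0.09 to 0.0128 for Fau. The cause was not tested.

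The label numbers were checked for pairing: samples with the same number correlated at -0.0782 to 0.0694 (5 pairs) and others at -0.153 to 0.146 (25 pairs). The ranges overlapped, and 5 pairs are too few to tell whether samples with the same number share a preparation. A replicate block (numbers 1 to 5, hence without control replicate 6) called 0 ribosomal protein genes lower and 0 higher and gave a median of 0.0161, against 0.0137 on the same samples without the block. The share of counts differed by 0.00652 to 0.0105 percentage points when a sample was left out. Chosen after seeing the data, the fit without loci linked to ribosomal RNA gave a median of 0.00967 and the genes with at least 50% unique windows 0.0169. Depth limits the genes under 10 CPM, and repeated sequence limits what any count on these genes stands for.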
